A study of Mus musculus with 12 samples.

Results

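The 38 genes described here carry cells through DNA replication and division, and were taken by name as a cell cycle module in mouse lung. They are 18 replication (S phase) members and 20 mitotic members, out of 18193 genes named on the array. Each gene was read from its probe set with the highest mean over 12 arrays, as the platform annotation names probe sets. A probe set was found for 37 members, and Ccnb1, cyclin B1, was not analysed here. Of these, 29 members (14 replication and 15 mitotic) lay above the median of all values, a log2 intensity of 4.85, on at least 3 arrays. They were tested together with all 11602 genes that did so.

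Lung RNA of wild-type mice was hybridised to Affymetrix arrays, 3 for each of 4 labelled groups. Control mice received vehicle and were 8 to 10 weeks old. Radiation mice received a single dose of 25 Gy and their lungs were taken 6 weeks later. Simvastatin mice received 10 mg/kg of simvastatin, an inhibitor of cholesterol synthesis, by intraperitoneal injection 3 times a week, and combined mice received both treatments. The radiation, simvastatin and combined mice were 8 to 12 weeks old, so age and treatment cannot be told apart in any comparison with control. The labels do not say that the arrays came from separate animals, and p-values therefore measure only the spread between these samples.

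The cell cycle is driven in steps. Cyclin E and the E2F factors open S phase, the CDC6, CDT1 and MCM proteins license and unwind the origins of replication, and PCNA and ribonucleotide reductase serve the moving fork. Cyclin A, cyclin B and CDK1 then drive entry into mitosis, spindle and centromere proteins separate the chromosomes, and CDC20 and UBE2C direct the degradation that ends mitosis. Most cells of an adult lung do not divide, and in whole tissue these transcripts come from the cells that do.

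Several facts of the series touch every result below. The deposited values are log2 intensities, with array medians between 4.42 and 5.12. The lung markers were bright on every array: Sftpc, a surfactant protein of alveolar type 2 cells, lay between 15.57 and 15.84. The level of the whole alveolar type 2 list, its mean log2 intensity relative to each gene's median over the arrays, was -0.83 on control 1 and -0.33 to 0.21 on the others, and that of the endothelial list was -1.03 on control 1 and -0.36 to 0.43 on the others. Combined 3, simvastatin 1 and simvastatin 3 were near-identical, since the SD of their pairwise log2 differences was 0.111 to 0.118 while the next closest pair of arrays had 0.336. Simvastatin 1 and simvastatin 3 were therefore averaged and counted as 1 sample, which left 11 samples and 2 in the simvastatin group. Combined 3 was as close to each of them but carries another label and was kept apart, so 11 may exceed the number of distinct samples. Cdkn1a, the p53 target that encodes the inhibitor p21, lay at 13.12 to 13.42 on the radiation arrays. It lay at 13.01 on the array labelled control 3, at 13.36 on that labelled simvastatin 2 and at 11.18 on that labelled combined 3. On these 3 arrays Cdkn1a thus went against the label. They are called below the 3 arrays that went against their labels, a name that rests on this 1 gene.

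One array stood far above the others. Control 1 was the highest array for 13 of the 14 tested replication members and for all 15 tested mitotic members, against 18.4% of all genes tested. Counting also the members that did not pass the filter, it was highest for 17 of the 18 replication members and for all 19 mitotic members with a probe set. The exception was E2f1, which was highest on control 3. The value on control 1 exceeded the next highest array by a median of 2.04 in the replication members and 2.75 in the mitotic members, on the log2 scale. An excess of more than 1 over every other array was found in 28 of the 29 tested members and in 3.17% of all genes tested. Control 1 was also the lowest of the 12 arrays for the alveolar type 2 and endothelial lists, and the part of this difference in its high member values was not tested. In whole tissue, more dividing cells and more of these transcripts per cell cannot be told apart.

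**Figure D1:**
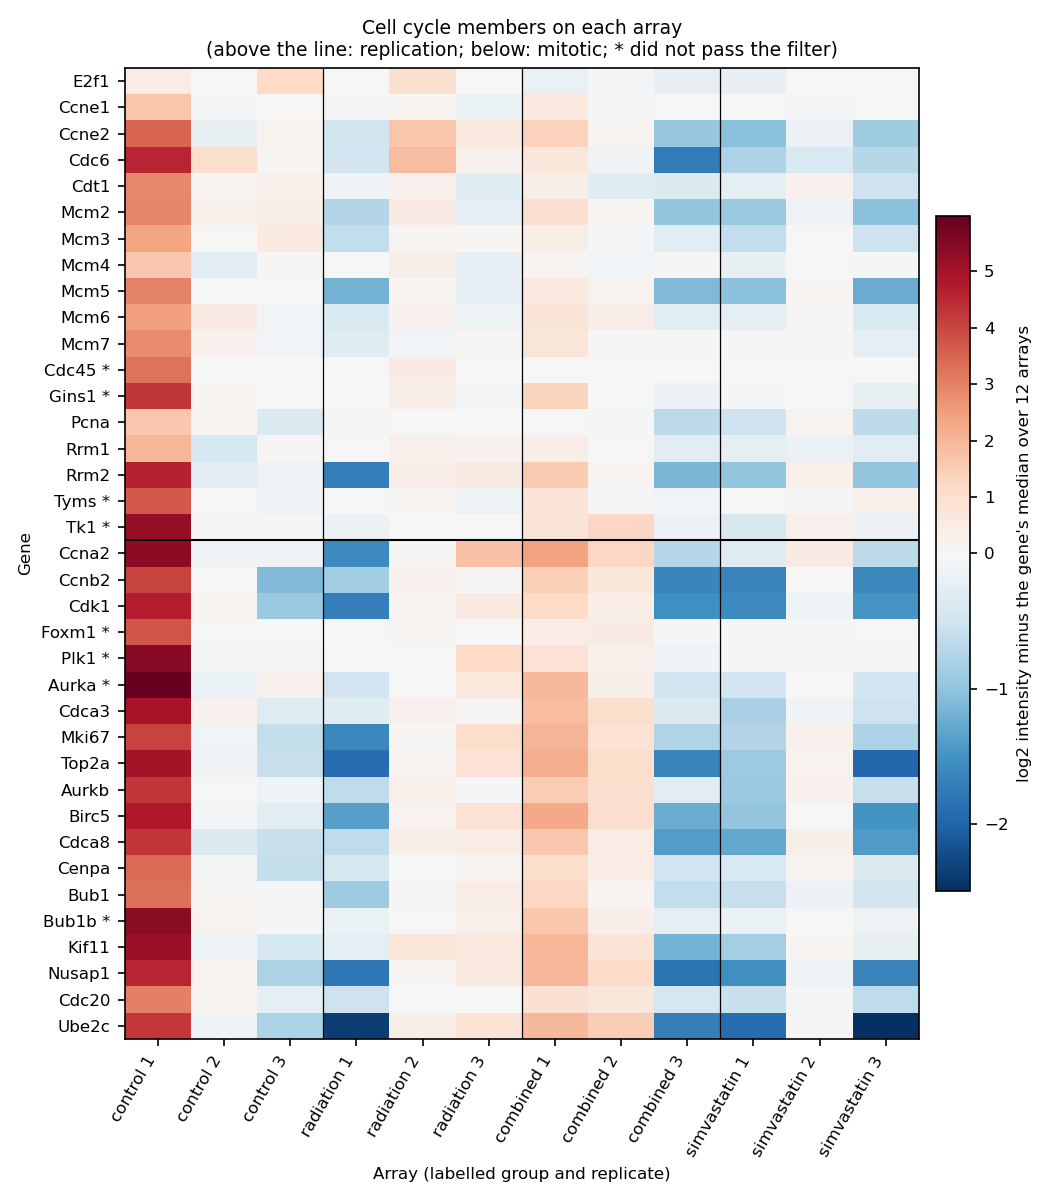
Heat map of the 37 members with a probe set (rows, by role) on the 12 arrays (columns), coloured by log2 intensity minus the gene's median over the 12 arrays, with the red and blue ends scaled separately to the highest and lowest value. Control 1 is red in nearly every row, combined 1 is the next reddest column in the mitotic rows, and radiation 1, combined 3, simvastatin 1 and simvastatin 3 are blue there.

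Markers of other cells were also high on this array. Of 14 thymocyte markers 12 had a probe set, and their mean level, relative to each gene's median over the arrays, was 7.84 on control 1, 3.82 on combined 1 and between -0.25 and 0.27 on the other 10 arrays. Rag1, the recombinase of developing lymphocytes, lay at 14.42 on control 1 and 11.05 on combined 1, and between 2.09 and 2.33 elsewhere. Dntt, which adds bases to receptor gene joints, lay at 13.10 on control 1 and 9.35 on combined 1. The level of 12 T and NK cell markers was 3.39 on control 1, 0.99 on combined 1 and 0.82 on combined 2. The part of these cells in the members' levels was not tested. Marker levels also ran from -0.93 to 5.20 for squamous epithelium, from -0.74 to 4.30 for brown fat and from -5.55 to 2.44 for skeletal muscle over the arrays, with 5.16, 3.76 and 1.89 on control 1.

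**Figure D2:**
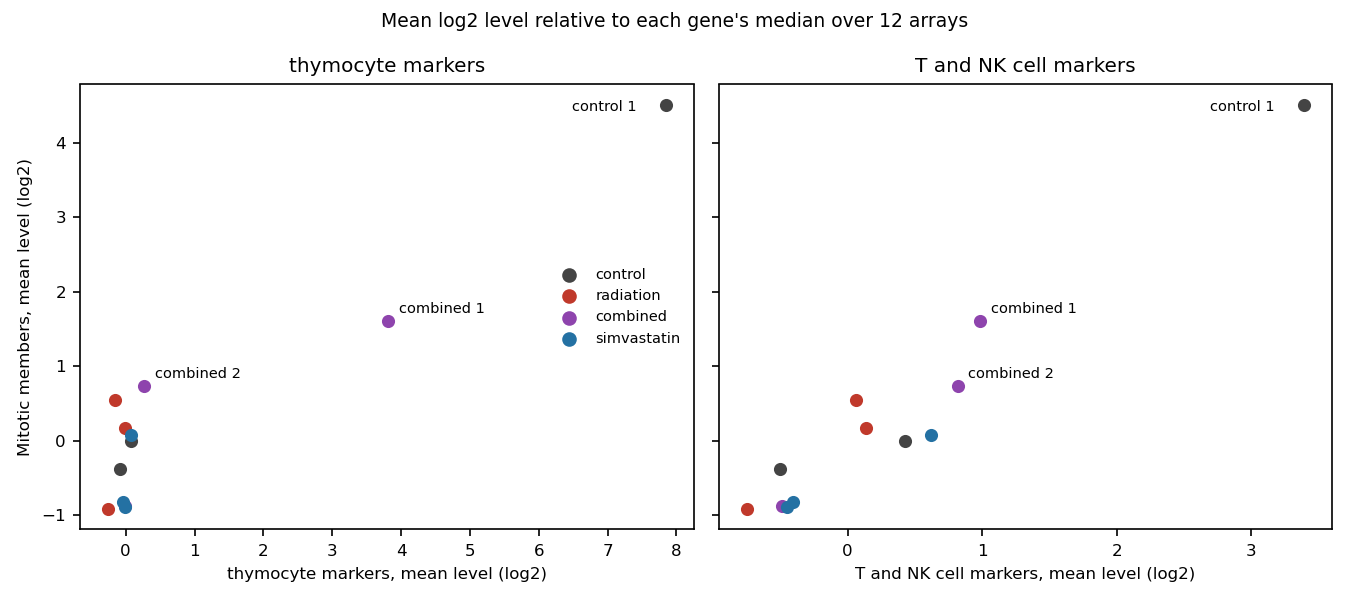
Mean level of the mitotic members (vertical axis, log2 relative to each gene's median) against the level of thymocyte markers (left) and of T and NK cell markers (right), 1 point for each array, coloured by labelled group. Control 1 is highest on all axes, and combined 1 is the second; combined 2, at a thymocyte level of 0.27 and a T and NK cell level of 0.82, has a mitotic level of 0.73.

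The mitotic members varied more than the replication members. On the scale of log2 level relative to each gene's median over 12 arrays, the mean of the mitotic members was 4.51 on control 1, 1.61 on combined 1, 0.73 on combined 2, 0.55 on radiation 3, 0.17 on radiation 2 and 0.08 on simvastatin 2. It was -0.00044 on control 2, -0.38 on control 3, and between -0.91 and -0.82 on radiation 1, combined 3, simvastatin 1 and simvastatin 3. The mean of the replication members was 2.93 on control 1, 0.62 on combined 1 and 0.43 on radiation 2, and lay between -0.46 and 0.12 on the other 9 arrays. The arrays of radiation and of combined mice therefore each spread from low to high within their own group.

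Both sets were highest on control 1, then on combined 1, and lowest on radiation 1, combined 3, simvastatin 1 and simvastatin 3. After combined 1, the replication members were highest on radiation 2 and the mitotic members on combined 2. The gap between the 2 sets varied by array, and it includes the wider spread of the mitotic members. The replication mean minus the mitotic mean was -1.59 on control 1, -0.99 on combined 1, -0.64 on combined 2 and -0.52 on radiation 3. It was 0.58 on radiation 1, 0.50 on control 3, 0.47 on simvastatin 3, 0.42 on combined 3 and 0.41 on simvastatin 1. With the G1/S genes left out of the replication members, and Mki67, Ccna2 and Foxm1 left out of the mitotic members, the levels without control 1 spanned -0.47 to 0.62 and -0.97 to 1.60.

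**Figure D3:**
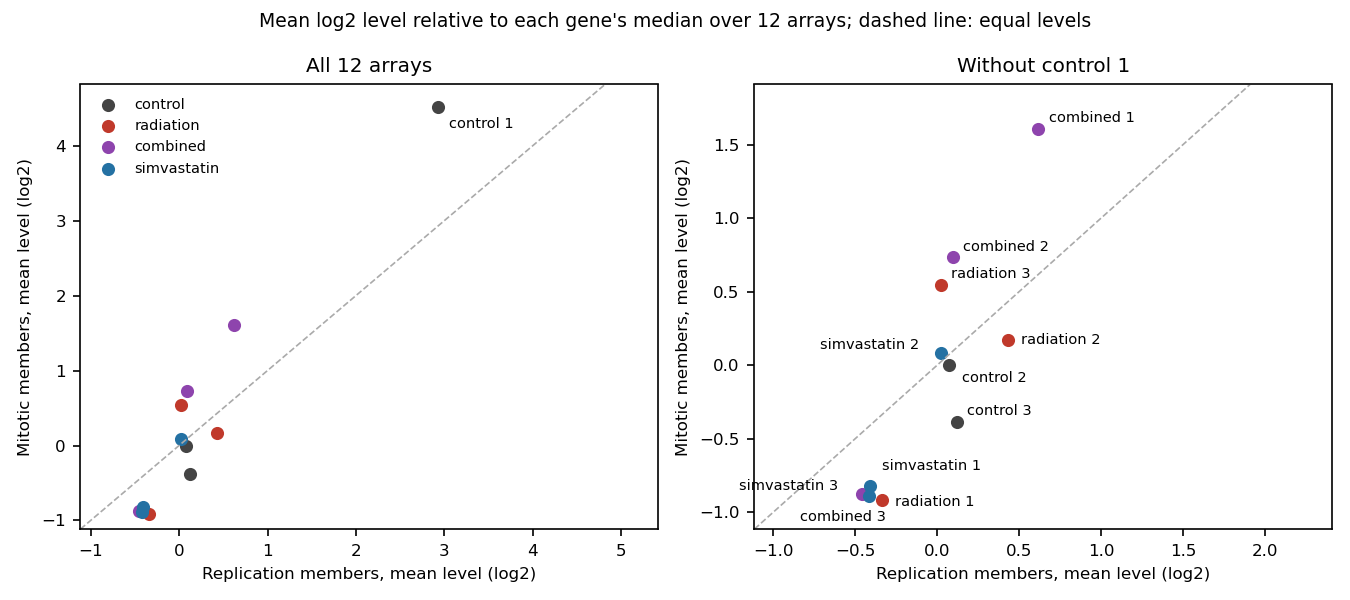
Mean level of the mitotic members (vertical axis) against that of the replication members (horizontal axis), both log2 relative to each gene's median, 1 point for each array. The left panel holds all 12 arrays and the right panel leaves out control 1; the points cross the dashed line of equal levels, with combined 1 farthest above it in the right panel (1.61 against 0.62).

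The range over the 11 arrays other than control 1 gave the same order. Its median was 1.17 log2 units in the 14 tested replication members, with a span of 0.65 to 3.61, and 3.06 in the 15 tested mitotic members, with a span of 1.57 to 4.46. The median over all genes tested was 0.92. A range above 2 was found in 3 tested replication members and in 13 tested mitotic members. Without control 1, combined 1 was the highest array for all 15 tested mitotic members but for 8 of the 14 tested replication members. Over the 3 near-identical arrays alone, the median range of the tested members was 0.20, and the largest was 1.05, in Top2a.

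**Figure D4:**
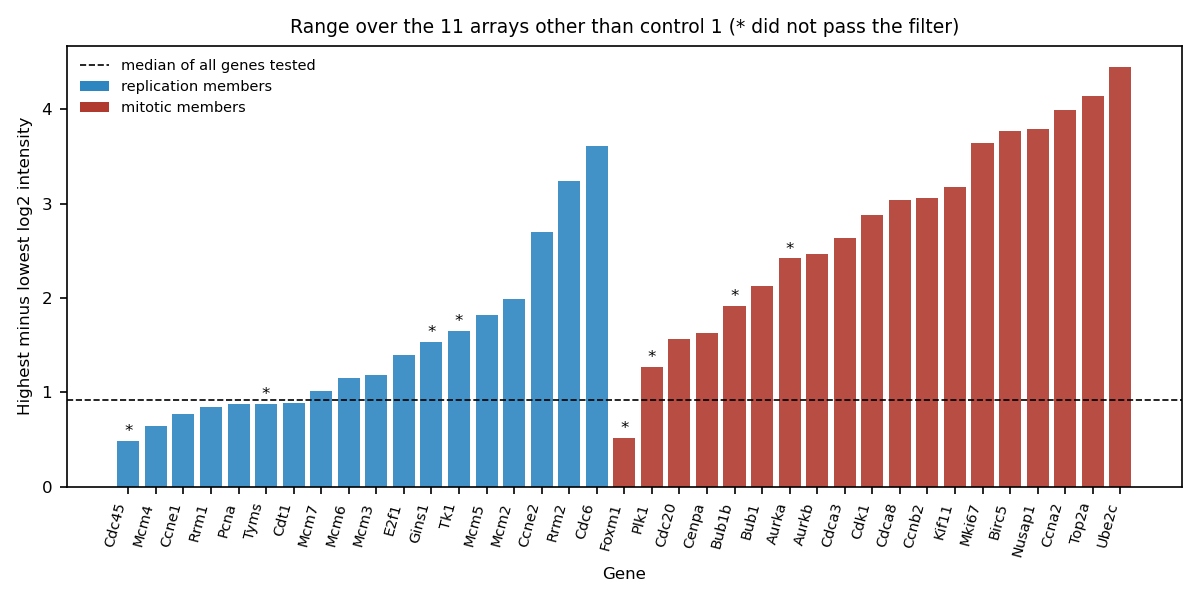
Highest minus lowest log2 intensity over the 11 arrays other than control 1, 1 bar for each of the 37 members with a probe set, replication members in blue and mitotic members in red, with the median of all genes tested (0.92) as a dashed line and an asterisk on members that did not pass the filter. On the chosen probe sets, the tested mitotic members all stand above the line, at 1.57 or more. Mcm4 (0.65), Ccne1 (0.77), Rrm1 (0.84), Pcna (0.87) and Cdt1 (0.88) stand below it, but second probe sets of Ccne1, Rrm1 and Cdt1 ran wider.

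Since the mitotic members moved together across arrays, their promoters were set beside those of the replication members. Windows of 300 bases, from 250 before to 50 after the gene start, were available from RefSeq (build GRCm38.p6) for 32 of the 38 members. The motifs searched on both strands were the cell cycle homology region (TTTGAA or TTCGAA), the CCAAT box (CCAAT) and an E2F site (TTTCCCGC, TTTCGCGC, TTTGCCGC or TTTGGCGC). The windows of 3 mitotic and 2 replication members are printed to show both patterns, in gene orientation, with every match to any of these motifs in capitals.
Ccnb2: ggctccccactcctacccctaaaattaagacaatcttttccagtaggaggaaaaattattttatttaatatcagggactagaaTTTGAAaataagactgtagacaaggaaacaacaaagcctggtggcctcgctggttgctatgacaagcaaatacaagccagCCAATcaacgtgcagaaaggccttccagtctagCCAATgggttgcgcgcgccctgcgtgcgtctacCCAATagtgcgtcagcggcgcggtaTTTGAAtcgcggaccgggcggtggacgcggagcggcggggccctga
Cdk1: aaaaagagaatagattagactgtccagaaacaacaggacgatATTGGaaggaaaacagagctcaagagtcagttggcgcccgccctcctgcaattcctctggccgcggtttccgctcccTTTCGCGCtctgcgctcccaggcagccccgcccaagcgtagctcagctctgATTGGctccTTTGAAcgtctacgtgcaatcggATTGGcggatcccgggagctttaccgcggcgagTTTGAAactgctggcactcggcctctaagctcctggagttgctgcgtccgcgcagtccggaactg
Mki67: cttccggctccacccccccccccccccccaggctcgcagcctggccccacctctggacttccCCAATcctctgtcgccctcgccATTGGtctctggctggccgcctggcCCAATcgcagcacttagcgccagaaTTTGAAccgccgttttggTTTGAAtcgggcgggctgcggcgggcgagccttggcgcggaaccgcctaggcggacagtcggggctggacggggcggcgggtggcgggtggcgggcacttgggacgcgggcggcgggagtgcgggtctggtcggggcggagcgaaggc
Mcm6: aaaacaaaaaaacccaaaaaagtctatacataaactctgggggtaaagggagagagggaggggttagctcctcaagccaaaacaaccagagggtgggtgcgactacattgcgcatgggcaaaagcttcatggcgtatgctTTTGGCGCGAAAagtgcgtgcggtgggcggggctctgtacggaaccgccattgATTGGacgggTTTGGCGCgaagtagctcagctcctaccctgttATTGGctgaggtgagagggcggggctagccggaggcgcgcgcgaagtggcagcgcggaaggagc
Mcm3: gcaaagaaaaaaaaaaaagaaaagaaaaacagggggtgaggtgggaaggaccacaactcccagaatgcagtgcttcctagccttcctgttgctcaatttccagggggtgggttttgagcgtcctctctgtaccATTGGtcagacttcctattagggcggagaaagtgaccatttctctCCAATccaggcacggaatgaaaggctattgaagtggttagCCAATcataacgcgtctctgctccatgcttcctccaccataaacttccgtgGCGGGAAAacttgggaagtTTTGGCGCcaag

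These windows lie on the minus strand at chr9:70421505-70421804 (Ccnb2), chr10:69352863-69353162 (Cdk1), chr7:135716330-135716629 (Mki67), chr1:128359656-128359955 (Mcm6) and chr1:20820263-20820562 (Mcm3). The Ccnb2 window holds 2 homology region matches and 3 CCAAT boxes, as do those of Cdk1 and Mki67, and the Cdk1 window also holds 1 E2F match. The Mcm6 window holds 3 E2F matches, of which 2 overlap in the run TTTGGCGCGAAA, and 2 CCAAT boxes. The Mcm3 window holds 2 E2F matches and 3 CCAAT boxes, and neither Mcm window has a homology region match.

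Over the members with a window, the homology region letters were found in 14 of 17 mitotic members (82.4%) and 3 of 15 replication members (20%), against 21.7% of all 27025 genes with a window. CCAAT boxes were found in 15 of 17 mitotic members (88.2%) and 9 of 15 replication members (60%), against 41.1% of all genes. E2F letters were found in 1 of 17 mitotic members (5.88%) and 6 of 15 replication members (40%), against 2.6% of all genes. The 3 mitotic windows without a homology region match were those of Ccnb1, Birc5 and Nusap1. A match describes letters in the window and is not evidence that a factor binds there.

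Among the G1/S members, Ccne2, a cyclin E that activates CDK2, had the widest range. It read 9.86, 6.21 and 6.60 on control 1 to 3, 5.94, 8.05 and 6.96 on radiation 1 to 3, 7.79, 6.54 and 5.45 on combined 1 to 3 and 5.35, 6.25 and 5.51 on simvastatin 1 to 3. After control 1 its highest array was radiation 2, and the 4 groups overlapped. Ccne1, the other cyclin E, had the narrowest range, with 6.56, 4.88 and 4.96 on the controls, 4.74 to 5.05 on the radiation arrays, 4.89 to 5.51 on the combined arrays and 4.90 to 4.92 on the simvastatin arrays. Apart from control 1 and combined 1, its arrays were nearly level on this probe set. A second Ccne1 probe set, below the filter's level on every array, ran wider. Without control 1 it spanned 2.74 to 3.97, with the highest value on radiation 2. E2f1, a transcription factor that activates S phase genes, was above the filter's level on 3 arrays only, with 5.80 on control 3, 5.56 on radiation 2 and 5.04 on control 1. Its other 9 arrays lay between 4.40 and 4.65, and its pattern was unlike that of the other members.

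The origin licensing members held both extremes of range among the tested replication members. Cdc6, which loads the MCM helicase on origins, read 9.74, 6.25 and 5.26 on the controls, 4.69, 7.04 and 5.43 on the radiation arrays, 5.84, 5.08 and 3.43 on the combined arrays and 4.40, 4.80 and 4.46 on the simvastatin arrays. Its simvastatin arrays all lay below its lowest control. Mcm4, a subunit of the helicase, read 12.02, 10.14 and 10.50 on the controls, 10.44, 10.79 and 10.23 on the radiation arrays, 10.52, 10.37 and 10.52 on the combined arrays and 10.25, 10.41 and 10.37 on the simvastatin arrays. Beyond control 1 its arrays were nearly level, and all groups overlapped.

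On the chosen probe sets, the subunits of 1 helicase did not share 1 range. Without control 1, Mcm2 spanned 1.99 log2 units, Mcm5 1.82, Mcm3 1.19, Mcm6 1.15, Mcm7 1.02 and Mcm4 0.65. These ranges depended on the probe set. Without control 1, a second Mcm2 probe set ran only from 6.80 to 7.70, and a second Mcm5 probe set ran from 2.97 to 6.15. Mcm2 read 10.77, 8.18 and 8.25 on the controls, 7.12, 8.34 and 7.62 on the radiation arrays, 8.82, 7.96 and 6.90 on the combined arrays and 6.94, 7.77 and 6.83 on the simvastatin arrays. Combined 1 was its highest array after control 1, and its simvastatin arrays lay below all controls. The second Mcm2 probe set differed in both respects. There control 3 (7.70) was the highest array after control 1, and simvastatin 2 (6.998) lay above control 2 (6.990). A second probe set for Mcm4 correlated with the chosen one at only r = 0.30 over the arrays other than control 1, but it too was highest on control 1, at 11.36. Cdt1, which brings the helicase to origins together with CDC6, spanned 0.88 without control 1, from 7.52 to 8.41. A second Cdt1 probe set ran wider, from 4.13 to 6.46 without control 1, and correlated with the chosen one at r = 0.54.

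At the fork and in nucleotide supply, the tested members were either level or followed the mitotic pattern on the chosen probe sets. Pcna, the sliding clamp of the replicating polymerases and also a p53 target, read 13.97, 12.48 and 11.98 on the controls, 12.32, 12.37 and 12.37 on the radiation arrays, 12.37, 12.33 and 11.69 on the combined arrays and 11.83, 12.56 and 11.69 on the simvastatin arrays. Its radiation arrays were nearly level, and the groups overlapped. Rrm1, the large subunit of ribonucleotide reductase, read 10.56, 8.13 and 8.64 on the controls, 8.58 to 8.87 on the radiation arrays, 8.30 to 8.97 on the combined arrays and 8.31 to 8.40 on the simvastatin arrays. A second Rrm1 probe set was less level. Without control 1 it ran from 7.49 to 9.04 and correlated with the chosen one at r = 0.36.

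Rrm2, the small subunit whose supply is tied to S phase, varied much more. It read 13.31, 8.43 and 8.59 on the controls, 7.02, 9.10 and 9.26 on the radiation arrays, 10.26, 8.85 and 7.57 on the combined arrays and 7.76, 9.03 and 7.74 on the simvastatin arrays. Combined 1 was second to control 1 and radiation 1 was lowest. Of the members that did not pass the filter, Cdc45 and Gins1 of the fork and Tyms and Tk1 of nucleotide supply lay above the filter's level on control 1 alone. Their control 1 values were 6.89, 7.39, 6.69 and 8.24, and their highest values on any other array were 4.13, 4.47, 3.75 and 4.29.

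Among the members of mitotic entry, Ccna2, cyclin A2, had the widest range. It read 11.93, 6.48 and 6.47 on the controls, 4.98, 6.65 and 8.31 on the radiation arrays, 8.97, 7.80 and 5.86 on the combined arrays and 6.24, 7.03 and 5.91 on the simvastatin arrays. The radiation arrays alone spanned most of its range without control 1, and the groups overlapped. Cdca3, an adaptor for the degradation of a mitotic inhibitor kinase, had the narrowest range among the tested members of mitotic entry, with 9.93, 5.25 and 4.66 on the controls, 4.69, 5.23 and 5.07 on the radiation arrays, 6.82, 6.04 and 4.62 on the combined arrays and 4.18, 4.91 and 4.48 on the simvastatin arrays. Combined 1 and combined 2 were its highest arrays after control 1. Ccnb2, cyclin B2, and Cdk1, the kinase that both cyclins activate, spanned 3.06 and 2.88 without control 1.

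Foxm1, the factor that activates many mitotic genes, and the mitotic kinases Plk1 and Aurka were above the filter's level on control 1 alone, at 6.35, 8.34 and 8.54. Their highest values elsewhere were 3.06 on combined 2, 4.08 on radiation 3 and 4.49 on combined 1. The checkpoint kinase Bub1b was above it on 2 arrays, with 9.46 on control 1 and 5.72 on combined 1, and lay between 3.80 and 4.43 on the others. Differences between arrays in these 4 genes were thus seen mainly through control 1.

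Of the chromosome and spindle members, Mki67, which encodes the proliferation antigen Ki-67, read 12.97, 8.84 and 8.33 on the controls, 7.31, 8.99 and 9.97 on the radiation arrays, 10.95, 9.78 and 8.16 on the combined arrays and 8.19, 9.18 and 8.12 on the simvastatin arrays. Top2a, the topoisomerase that untangles sister chromosomes, had the widest range, with 12.68, 7.59 and 7.11 on the controls, 5.78, 7.78 and 8.57 on the radiation arrays, 9.88, 8.73 and 6.03 on the combined arrays and 6.78, 7.88 and 5.73 on the simvastatin arrays. In both genes combined 1 was second to control 1, radiation 1 was among the lowest arrays and radiation 3 among the highest after combined 1, and the groups overlapped. Cenpa, the histone of centromeres, had the narrowest range, with 10.70, 7.28 and 6.72 on the controls, 6.91, 7.35 and 7.41 on the radiation arrays, 8.35, 7.74 and 6.85 on the combined arrays and 6.94, 7.49 and 6.95 on the simvastatin arrays. It kept the same highest array as the wider members.

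The remaining members of this role lay between those limits. Without control 1, Nusap1, a spindle microtubule protein, spanned 3.80 log2 units, and Birc5, survivin, spanned 3.77. The kinesin motor Kif11 spanned 3.18, and Cdca8, which with survivin and the kinase Aurkb forms the chromosomal passenger complex, spanned 3.04. Aurkb spanned 2.46 and was above the filter's level on 3 arrays only, control 1, combined 1 and combined 2. The checkpoint kinase Bub1 spanned 2.13. In all 6 genes combined 1 was the highest array after control 1.

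The members of mitotic exit were also far apart in range. Ube2c, a ubiquitin-conjugating enzyme of the anaphase-promoting complex, read 10.71, 6.36 and 5.66 on the controls, 4.11, 6.86 and 7.28 on the radiation arrays, 8.41, 7.94 and 4.74 on the combined arrays and 4.56, 6.55 and 3.96 on the simvastatin arrays. Cdc20, which activates that complex, read 12.36, 9.51 and 9.13 on the controls, 8.84, 9.39 and 9.40 on the radiation arrays, 10.28, 10.01 and 8.90 on the combined arrays and 8.79, 9.31 and 8.71 on the simvastatin arrays. Both were highest on control 1, then combined 1, then combined 2, and the groups overlapped.

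Radiation was compared with control to see how the module stood 6 weeks after irradiation. All 29 tested members had a lower mean in the radiation group than in the control group, where 39.6% of all genes tested did. The median log2 difference was -1.18 over the tested members, -1.06 over the replication members and -1.49 over the mitotic members, against 0.084 over all genes. None of the members passed an adjusted p of 0.05 (limma, Benjamini-Hochberg over all genes tested; 0% of genes passed), and none had p under 0.05 without adjustment, as 600 genes did. No member had groups that did not overlap, against 4.86% of genes higher and 2.03% lower.

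Individual members were no clearer. Mcm3, another helicase subunit, read 11.16, 8.78 and 9.37 on the controls and 8.19, 8.95 and 8.92 on the radiation arrays, a difference of -1.08 ± 0.53 (SE). Mcm2 differed by -1.37 ± 0.73 and Mcm6 by -1.04 ± 0.56, and all 3 had an adjusted p of 0.751 in limma. Top2a had the largest difference, -1.75 ± 1.51, with an adjusted p of 0.764. For Mki67 the group means were 8.75 ± 1.35 (SD, n = 3) and 10.05 ± 2.55 (SD, n = 3), and an exact permutation test of that difference, two-sided, gave p = 0.7, where 0.1 is the lowest these groups allow.

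Without control 1 the direction was lost. The tested members then split into 15 above and 14 below 0, with a median of 0.029 over all of them, -0.13 over the replication members and 0.064 over the mitotic members. The Mki67 difference was 0.17 (exact permutation p = 0.8), the Top2a difference 0.029 and the Mcm3 difference -0.39 ± 0.33. Again 0% of genes passed the adjusted p in any of the 6 comparisons, and 281 had p under 0.05 in this one. Without the 3 arrays that went against their labels, which leaves control 1 in a group of 2, the medians were -1.42 and -2.29 for the replication and mitotic members.

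**Figure D5:**
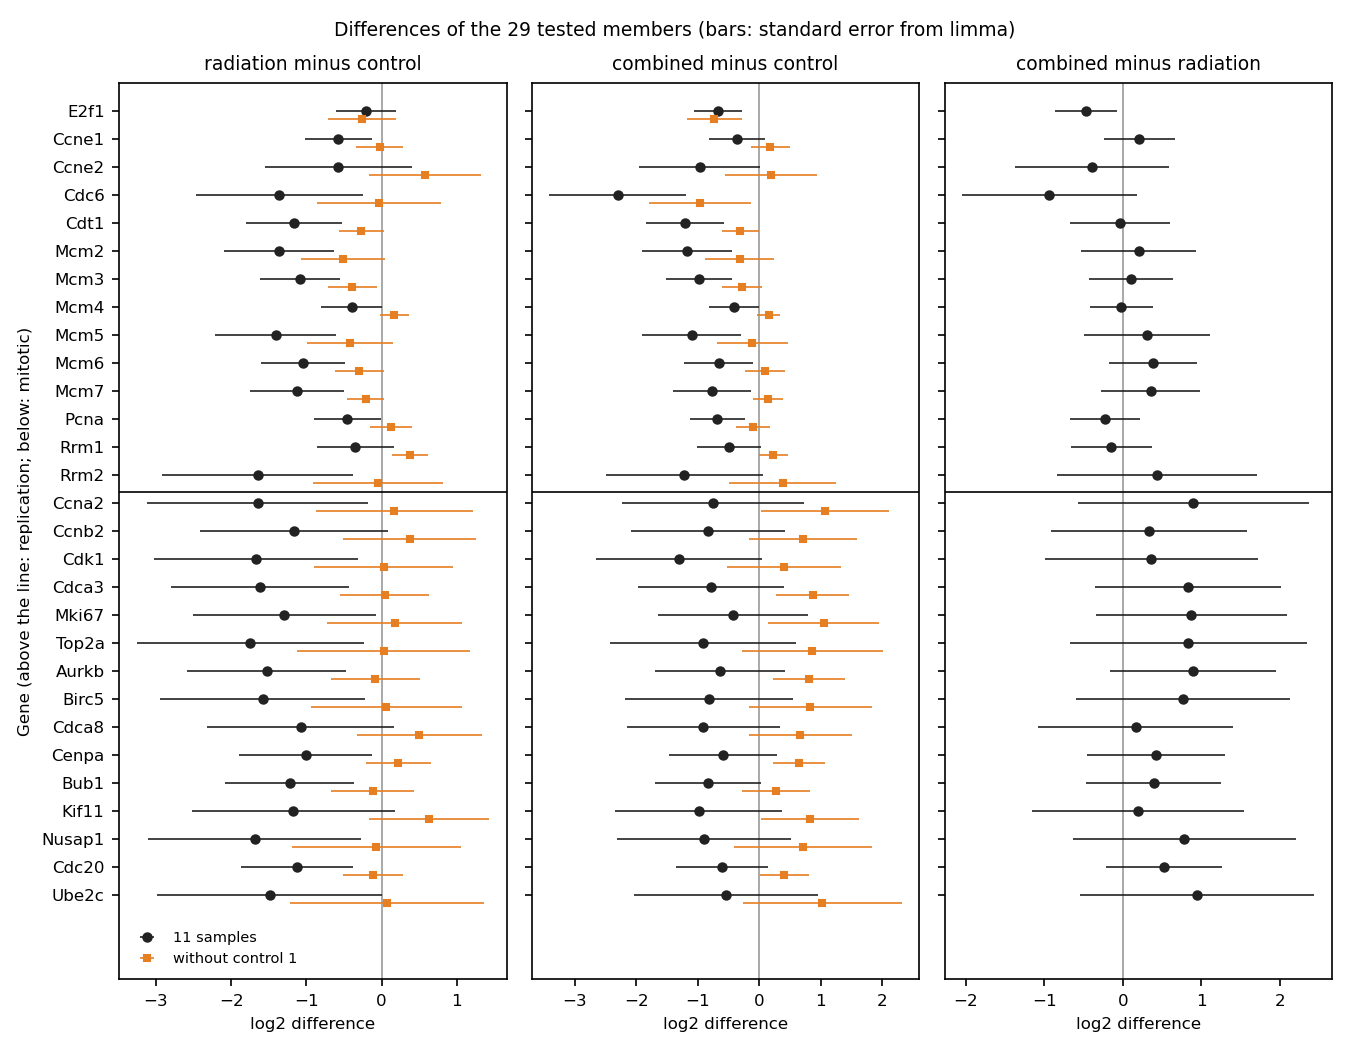
Log2 difference (horizontal axis) of each of the 29 tested members (rows, replication above the line and mitotic below) in 3 comparisons, with bars for the standard error; black circles use 11 samples and orange squares leave out control 1. All circles lie below 0 in both comparisons with control, while the squares lie around 0 for radiation (median 0.029) and above 0 for all 15 mitotic members of the combined group (median 0.81).

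Combined treatment was compared with radiation alone to see what simvastatin added in irradiated mice. No control array enters these differences, but the variance behind each SE and p is pooled over all groups and includes control 1. All 15 tested mitotic members were higher in the combined group, with a median log2 difference of 0.77, while the 14 tested replication members split into 7 higher and 7 lower with a median of 0.045. Among the mitotic members, Aurkb passed the filter only through control 1, combined 1 and combined 2, so its place in this count depends on arrays where it was high. The B and plasma cell list moved with this comparison: its level was 0.57, 1.20 and 0.39 on combined 1 to 3 and -1.22, -0.68 and -0.40 on radiation 1 to 3, so the groups did not overlap, and its part in the members' differences was not tested. The median of all genes was -0.092, and 62.6% of genes were lower. None of the members passed the adjusted p (0% of genes passed) and none had p under 0.05, as 518 genes did. With control 1 left out of the fit the differences are the same, and again none of the members passed or had p under 0.05, as 1129 genes did. The largest difference was that of Ube2c, 0.95 ± 1.49, and that of Mki67 was 0.87 (exact permutation p = 0.5).

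The members with the lowest p in this comparison went different ways. Aurkb read 3.72, 4.67 and 4.33 on the radiation arrays and 5.90, 5.39 and 4.11 on the combined arrays, a difference of 0.90 ± 1.06 with an adjusted p of 0.879 in limma. Cdc6 differed by -0.93 ± 1.11 with the same adjusted p. E2f1 read 4.65, 5.56 and 4.63 on the radiation arrays and 4.45, 4.57 and 4.41 on the combined arrays. On this probe set the groups did not overlap, and the difference was -0.47 ± 0.39 with an adjusted p of 0.84 in limma. Of these arrays only radiation 2 lay above the filter's level. A second E2f1 probe set, below that level on every array, had overlapping groups (radiation 2.95 to 3.41, combined 2.71 to 3.11). On the chosen probe sets, E2f1 was the 1 tested member of 29 with lower, non-overlapping groups, against 13.5% of genes. No member was so in the other direction, against 3.7% of genes.

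The mitotic difference depended on combined 1 and on radiation 1. Without radiation 1 the mitotic median was 0.063, that of all tested members -0.039, that of the replication members -0.11 and the difference of Ube2c -0.041. Without combined 1 and control 1, 9 of the 15 mitotic members were higher and 6 lower, with a median of 0.006, and the replication median was -0.26. Combined 1 is also the array with the thymocyte level of 3.82, and the 5 thymocyte markers tested had a median difference of 1.86 in this comparison. On arrays centred on their medians the comparison shifted for all genes alike, to a median of -0.45. The median of all tested members was then -0.0044, and relative to all genes it was 0.45 with and without centring. Without the 3 arrays that went against their labels, which leaves combined 1 in a group of 2, the medians were 0.22 for the replication members and 1.41 for the mitotic members.

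Simvastatin alone was compared with control in unirradiated mice. All 29 tested members were lower in the simvastatin group, with medians of -1.13 for the replication members and -1.74 for the mitotic members, against -0.0023 over all genes, of which 50.4% were lower. None of the members passed the adjusted p (0% of genes passed), and none had p under 0.05, as 214 genes did. Mcm2 differed by -1.74 ± 0.82, Mcm3 by -1.25 ± 0.59 and Cdc6 by -2.47 ± 1.24, each with an adjusted p of 0.99 in limma.

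On the chosen probe sets, the simvastatin samples lay below all controls in 4 members, Mcm2, Cdc6, E2f1 and the mitotic member Bub1. That held for 7.96% of genes. In no member did they lie above, where 3.36% of genes did. On second probe sets of Mcm2, E2f1 and Bub1 the 2 groups overlapped, though those of E2f1 and Bub1 lay below the filter's level on every array. Without control 1 the medians were -0.31 and -0.28, and 24 of the 29 tested members were lower. The Mki67 difference then went from -1.38 (exact permutation p = 0.8) to 0.082. The simvastatin group holds 2 samples, and 1 of them is the array labelled simvastatin 2. Without the 3 arrays that went against their labels, 1 simvastatin sample remained and the medians were -1.77 and -3.26.

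Combined treatment was compared with control across both treatments. All 29 tested members were lower in the combined group, with a median of -0.87 for the replication members and -0.82 for the mitotic members, against 0.0039 over all genes. None of the members passed the adjusted p (0% of genes passed), and none had p under 0.05, as 327 genes did. Cdc6 differed by -2.30 ± 1.11, Cdt1 by -1.20 ± 0.63 and Mcm3 by -0.98 ± 0.53, each with an adjusted p of 0.995 in limma. E2f1 was the 1 tested member with lower, non-overlapping groups, against 3.87% of genes, and none was higher so, against 2.67%. On its second probe set, below the filter's level on every array, these groups overlapped.

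The 2 sets parted when control 1 was left out. All 15 tested mitotic members were then higher in the combined group, with a median of 0.81, while the replication members split into 7 higher and 7 lower with a median of -0.0056. Of these mitotic members, Aurkb passed the filter only through control 1, combined 1 and combined 2. Mki67 differed by 1.04 (exact permutation p = 0.5) and Cdca3 by 0.87 ± 0.59. With combined 1 left out too, the mitotic median was 0.090. The medians were -0.96 and -0.89 without the 3 arrays that went against their labels. The comparisons with control share their control arrays, so their directions are not independent of one another.

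The interaction asks whether radiation moved the module differently with and without simvastatin. All 29 tested members had a positive interaction, with a median of 1.34 for the replication members and 2.50 for the mitotic members, against -0.088 over all genes. None of the members passed the adjusted p (0% of genes passed), and none had p under 0.05, as 377 genes did. Mcm2 had an interaction of 1.94 ± 1.10, Mcm6 1.48 ± 0.84, Mcm3 1.36 ± 0.80 and Ube2c 3.12 ± 2.24, each with an adjusted p of 0.882 in limma. Without control 1 the medians were 0.23 and 0.81, and without combined 1 as well they were 0.018 and 0.24. They were 2.10 and 4.69 without the 3 arrays that went against their labels.

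Irradiated minus unirradiated set the radiation and combined groups against the other 2 groups. Of the tested members 27 of 29 were lower in irradiated mice, with medians of -0.35 for the replication members and -0.21 for the mitotic members, against 0.051 over all genes. None of the members passed the adjusted p (0% of genes passed), and none had p under 0.05, as 151 genes did. Cdt1 differed by -0.60 ± 0.48, Mcm3 by -0.40 ± 0.40 and Mcm7 by -0.42 ± 0.47, each with an adjusted p of 0.999 in limma. Without control 1 the medians were 0.058 and 0.59, and 25 of the 29 tested members were higher. Leaving out the 3 arrays that went against their labels gave medians of -0.25 and -0.12.

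Other genes of the pathway were read from lists of 30 replication, 32 mitotic and 20 cyclin D, CDK and inhibitor genes, of which 18, 20 and 18 passed the filter. None passed the adjusted p in any of the 6 comparisons. For radiation minus control, all 18 replication genes and all 20 mitotic genes were lower, with medians of -0.69 and -1.06, and without control 1 the medians were -0.061 and 0.15. The lowest p among the replication genes were those of Dnmt1, which copies DNA methylation to new strands (-0.91 ± 0.39), Pola2 of the priming polymerase (-0.56 ± 0.29) and the ligase Lig1 (-1.03 ± 0.59). Among the mitotic genes they were those of Ncapd2, a condensin subunit (-1.94 ± 1.13), the kinesin Kif23 (-1.27 ± 0.81) and the checkpoint gene Mad2l1 (-1.03 ± 0.66), all with an adjusted p of 0.751 in limma.

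The brakes and starters of the cycle leaned the same way but were less uniform. The level of this list was 0.45 on control 1 and between -0.33 and 0.15 on the other arrays. Of the 18 tested cyclin D, CDK and inhibitor genes 13 were lower in the radiation group and 5 higher, with a median of -0.23. Cdkn1a read 10.25, 10.69 and 13.01 on the controls and 13.36, 13.12 and 13.42 on the radiation arrays, a difference of 1.99 ± 0.83 with groups that did not overlap (exact permutation p = 0.1, the lowest possible). Cdkn2c, which inhibits the cyclin D kinases, read 10.64, 10.07 and 10.09 on the controls and 9.59, 9.55 and 9.11 on the radiation arrays, so every radiation array was lower, with a difference of -0.85 ± 0.28. Ccnd1, cyclin D1, differed by 0.85 ± 0.39, and all 3 had an adjusted p of 0.751 in limma. Groups without overlap were found in 4.86% of all genes tested in the higher direction and in 2.03% in the lower.

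For combined minus radiation the same lists gave 8 of 18 replication genes, 18 of 20 mitotic genes and 7 of 18 cyclin D, CDK and inhibitor genes higher, with medians of -0.026, 0.32 and -0.058. The lowest p were those of Gins4 of the helicase (-0.33 ± 0.26), Rpa2, which coats single strands (-0.41 ± 0.39), and the PCNA-binding Pclaf (0.93 ± 1.15). Among the mitotic genes they were Hmmr (1.57 ± 1.30), Ncapd2 (0.96 ± 1.13) and the centromere gene Cenpf (0.80 ± 1.28). Ccnd1 was lower on every combined array than on any radiation array (-0.79 ± 0.39), Cdk4, its kinase partner, differed by 0.37 ± 0.20 and the inhibitor Cdkn1c by -0.43 ± 0.28. Their adjusted p in limma lay between 0.835 and 0.91. Like Ccnd1, Rpa2 and the inhibitor Cdkn2d had lower, non-overlapping groups, against 13.5% of all genes tested. Without combined 1 and control 1, 5 of the 20 mitotic genes were higher.

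As a description, each tested member was correlated with the mean of the other tested members over the 10 samples without control 1, which share their arrays and scaling. That mean was not scaled by gene, so members of wider range, which were mainly mitotic, weighed more in it. A higher r in the mitotic members is in part built in. Pearson's r was 0.88 to 0.98 in the mitotic members, with Birc5 highest. It ran from 0.030 in E2f1 and 0.11 in Mcm4 to 0.92 in Mcm5 and 0.95 in Rrm2 among the replication members. The 5 genes outside the lists most like the mean of the members were Aspm (r = 0.959), Gas2l3 (r = 0.959), Kif20b (r = 0.939), Asf1b (r = 0.936) and Aif1 (r = 0.933). With combined 1 and combined 3 left out, r was 0.917, 0.947, 0.868, 0.893 and 0.898 in that order. Spearman's rho over all 10 samples lay between 0.867 and 0.964. Control 1 did not enter these correlations. Aspm, Gas2l3, Kif20b and Asf1b were also highest on control 1, but Aif1 read 8.71 there and up to 9.53 on the other arrays.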

How the data were processed

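Gene expression was measured on 12 arrays, grouped by title. The authors deposited log2 intensities, and the submitters' processing notes name MAS5 and GCRMA without versions or order. The sources used here do not give background settings or scaling, and the number of arrays limits the precision. Of 45101 probe sets, 34945 had 1 gene symbol in the platform annotation, 932 had several and were left out, and 34741 of the former matched RefSeq by Entrez identifier.

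Values were used as deposited. Probe sets above log2 4.85 on at least 3 arrays were kept, and the highest mean stood for a gene. Group means were fitted in R 4.3.3 by limma 3.58.1 (eBayes with a trend, 7 residual degrees of freedom), with two-sided p-values adjusted by Benjamini-Hochberg over 11602 genes and a threshold of 0.05. The code was tested on simulated data. List levels are means over genes of log2 intensity minus the gene's median over the arrays.

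The members and lists were chosen with earlier results of these data known. The genes named are Mki67, the members of widest and narrowest range in each role, the 3 of lowest p and the largest difference in each comparison, and the 3 of lowest p in each other list; others were named after their values were seen. Same-numbered arrays correlated at r = -0.259 to 0.408 in their deviations from group means, and only control and combined had all 3 pairs above 0.1. The labels number the replicates but do not say that arrays are paired, and the main fit used no pairing. The source of these correlations was not tested. Alternatives changed the scaling, the filter, the probe set, the near-identical arrays, the array weights, the variance trend and the arrays used.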

Additional observations from a re-analysis of the deposited data

Results flagged for a closer look

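Mcm4, a subunit of the replicative helicase, was singled out because every radiation array lay below the control mean while every combined array lay above the simvastatin mean. Its interaction of radiation and simvastatin was 0.51 ± 0.61 (SE) on the log2 scale, with an adjusted p of 0.885 in limma. The control mean of 10.89 includes control 1 at 12.02, and without that array the interaction was -0.06 ± 0.27.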

How the results depend on the processing

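No member passed the adjusted p in limma under any alternative run, in any of the 6 comparisons. With array weights 1241 genes passed for radiation minus control, 1172 for combined minus radiation and 43 for combined minus control, and without the 3 arrays that went against their labels 9, 0 and 2, with 2 for irradiated minus unirradiated; the cause was not tested. Array weights also turned combined minus control to 0.44 (members) and 0.87 (mitotic), and irradiated minus unirradiated to 0.20, 0.028 (replication) and 0.38. Median centring turned combined minus radiation to -0.0044 for the members and -0.32 for the replication members, and quantile normalization turned the latter to -0.021. Without the 3 arrays, the interaction was 3.31 for the members and 4.69 for the mitotic members.

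Leaving out 1 array at a time moved the medians. Reversals came without control 1, without combined 1, without radiation 1 (combined minus radiation, -0.039 for the members, -0.11 for the replication members and -0.041 for Ube2c) and without combined 3 (irradiated minus unirradiated, 0.20 for the mitotic members). For radiation minus control they ran from -1.91 to 0.029 (members), -1.42 to -0.13 (replication), -2.29 to 0.064 (mitotic) and -2.76 to 0.029 (Top2a). For combined minus radiation they ran from -0.044 to 0.83, -0.26 to 0.22 and 0.0060 to 1.41, and for Ube2c from -0.041 to 2.09. For simvastatin minus control they ran from -2.19 to -0.28, -1.59 to -0.31 and -2.72 to -0.28. For combined minus control they ran from -1.50 to 0.38, -1.31 to -0.0056 and -1.70 to 0.81. For the interaction they ran from 0.66 to 2.42, 0.23 to 1.75 and 0.81 to 3.31. For irradiated minus unirradiated they ran from -0.61 to 0.31, -0.53 to 0.058 and -0.64 to 0.59, and for Mcm7 from -0.69 to 0.042. Counts of genes passing were 0 or 1, and 1 only without control 3.

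Without control 1 and combined 1 together, a setting chosen after seeing the data, radiation minus control was 0.029 (members), 0.064 (mitotic) and 0.029 (Top2a), and combined minus radiation was -0.044 (members) and -0.26 (replication). Simvastatin minus control was -0.28 (members), combined minus control 0.090 (mitotic), the interaction 0.20, 0.018 and 0.24, and irradiated minus unirradiated 0.15 (members) and 0.24 (mitotic). With the replicate number as a block, combined minus control had a members' median of -0.82 with 0 genes passing, and the block changed no call in any comparison.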
